A study of Haliotis discus hannai with 24 samples.

Results

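Of 19700 genes counted in 3 sensory organs of the Pacific abalone, Haliotis discus hannai, 26 formed the group described here. They were lower in the epipodial tentacle of the foot than in both head organs, the eyestalk and the cephalic tentacle. They were chosen by their measured levels. The level was CPM, a gene's count scaled by the total count of its library, taken as the median over the 8 libraries of an organ. A gene was kept when both head medians were at least 10 CPM, when the lower head median plus 1 was at least 2-fold the epipodial median plus 1, and when the head medians plus 1 were less than 4-fold apart. Differences between head and epipodial libraries, and the closeness of the head organs, are therefore a description: calls of a model on this contrast are printed once, beside their background, and no test is read from them.

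Polyadenylated RNA was sequenced from 6 groups of 4 libraries, 24 in all: left and right eyestalk, left and right cephalic tentacle, and left and right epipodial tentacle. The labels give all animals as farmed stock, under a genotype entry that reads "Aquaculture", and name cutting off the sampled organ as the treatment. Age, sex and the number of animals are not given in the labels, nor whether libraries of the same replicate number came from the same animal, so every p-value measures the spread between these libraries, which may be in part technical. All 24 libraries carry the same batch label. The side of the epipodial libraries is in doubt: the titles of those labelled left share the side letter of the right head organs, those labelled right share that of the left, and the treatment entry of those labelled left names the cephalic tentacle. The tissue label was followed here. The organ medians take both sides together and do not depend on it, and values split by side are also given with the epipodial sides exchanged.

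In abalone the eyestalk bears the eye on a short stalk beside the head, and the cephalic tentacle next to it is a long, extensible organ of touch and chemical sense. Epipodial tentacles are many small tentacles on the fold of skin around the foot, and also sense touch and chemicals. All are outgrowths of the body wall with sensory cells, cilia and muscle, and the eye, with its light-sensing cells, is found only on the eyestalk. No file gives a name for an identifier, so identifiers are printed as they stand and no role is attached to any. No gene list or cell marker could be matched, and the labelled tissues were not checked against markers. In bulk tissue, fewer cells of a type and less RNA per cell cannot be told apart.

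Depth and detection differed more between head libraries than between epipodial ones. The total count was 473072 to 4479096 in head libraries, against 1700095 to 2146464 in epipodial libraries. Fewer than 6000 genes were detected in 7 head libraries, and in another, right eyestalk number 2, a single gene took 70.8% of the counts. These 8 libraries (left eyestalk 2 and 3, right eyestalk 1 and 2, left cephalic tentacle 1 and 2, right cephalic tentacle 3 and 4) are all from head organs, so the results that rest on them are given with and without them.

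Together the 26 genes made up under 1% of the counts of every library, and a larger share in head libraries than in epipodial ones. Their summed level was 3658 to 6506 CPM in the eyestalk (median 4499) and 4040 to 9488 CPM in the cephalic tentacle (median 4789), against 927 to 1613 CPM in the epipodial tentacle (median 1161). No head library overlapped an epipodial library, a direction that the choice of the genes fixes. With the 8 libraries left out, the sums were 3658 to 4398 CPM in the eyestalk and 4040 to 6681 CPM in the cephalic tentacle. In the 8 libraries themselves they were 4601 to 6506 CPM in the eyestalk and 4312 to 9488 CPM in the cephalic tentacle. TMM factors correct for a few genes taking many of the counts. With them the sums were 2081 to 17350 in the eyestalk and 2598 to 10640 in the cephalic tentacle. In the epipodial tentacle they were 643 to 1349. The eyestalk sums with TMM factors were 2081 to 5247 without the 8 libraries and 7619 to 17350 in them, with no overlap. For the cephalic tentacle they were 2598 to 9357 without the 8 libraries and 4710 to 10640 in them.

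The pattern was uncommon among the genes that could have shown it. Both head medians reached 10 CPM in 2566 genes, and in 2438 of these, called candidates here, they lay within 4-fold, so the 26 were 1.07% of the candidates. The log2 ratio of the lower head median to the epipodial median, each plus 1, had a median of 1.47 over the 26 genes, against -0.78 over the candidates, of which 339 (13.9%) had a log2 ratio above 0. The opposite pattern was an epipodial median of at least 10 CPM that, plus 1, was at least 2-fold both head medians plus 1. With the head medians plus 1 less than 4-fold apart, it was met by 861 genes. They were counted over all genes, without the head minimum of 10 CPM, so they are not a share of the candidates. Scaling moved these counts. With TMM factors 90 genes met the rule and 334 met its opposite, and with RLE factors, which correct in another way, the counts were 86 and 321. The candidate median was then -0.35 and -0.30. Of the 26 genes, 24 also met the rule with TMM factors (HDSC02276CG00040 and HDSC00138CG00100 did not), and 25 with RLE factors (HDSC02276CG00040 did not).

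**Figure D1:**
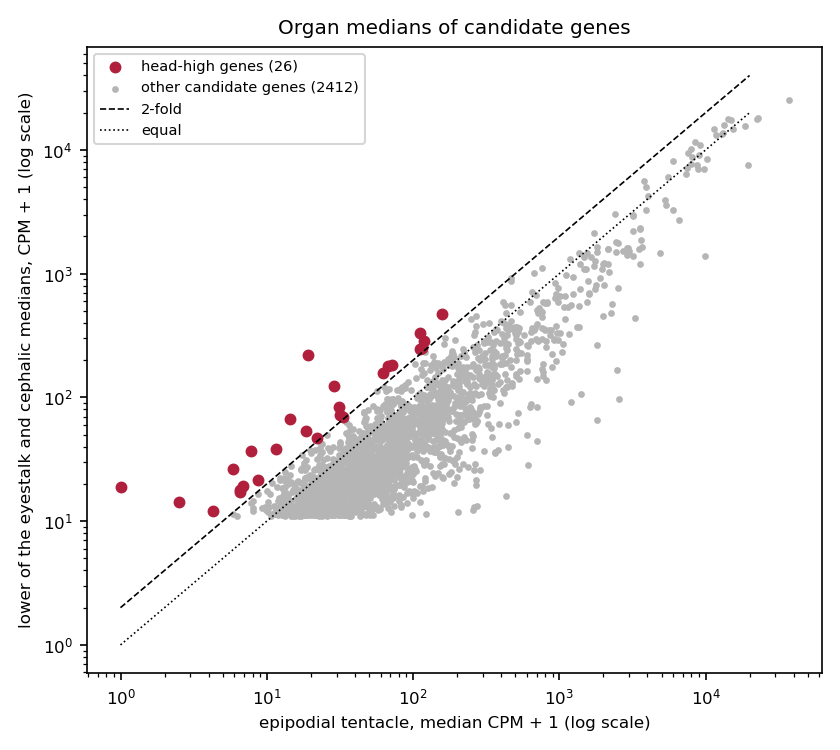
Lower of the eyestalk and cephalic medians (vertical) against the epipodial median (horizontal) for 2438 candidate genes, both as CPM + 1 on log axes; red points are the 26 head-high genes. The red points lie on or above the dashed 2-fold line, with HDSC02276CG00040 at the left edge, and most grey points lie below the dotted line of equal levels.

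The 26 genes ran down to the limit of the rule with no gap. In 7 the ratio was at least 4-fold and in 18 it was under 3-fold. The last genes inside were HDSC08259CG00030, with medians of 45.8 CPM in the eyestalk, 72.6 in the cephalic tentacle and 20.9 in the epipodial tentacle (log2 ratio 1.09), and HDSC04069CG00010, with 80.1, 68.0 and 32.5 CPM in the same order (1.04). Just outside were HDSC01077CG00120 (116, 112 and 55.9 CPM, log2 ratio 0.99) and HDSC00798CG00070 (1375, 924 and 466 CPM, 0.99). Another 19 genes met the ratio but fell short of 10 CPM, the nearest being HDSC01839CG00060, with a lower head median of 9.74 CPM, and HDSC00473CG00170, with 9.29 CPM. No gene was left out only because its head organs differed.

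The gene that came closest to being absent from the foot was HDSC02276CG00040. It stood at 105, 95.4, 4.73 and 66.8 CPM in the left eyestalk (numbers 1 to 4) and at 37.8, 37.3, 10.9 and 104 CPM in the right eyestalk. In the left cephalic tentacle it had 3.49, 18.2, 30.9 and 32.4 CPM, and in the right 19.8, 17.4, 0 and 0 CPM. In the epipodial tentacle it was at 0 in all 4 left libraries and at 0.505, 0, 0 and 0 CPM in the right. Every eyestalk library was therefore above every epipodial one, and 2 cephalic libraries, both with few genes detected, overlapped them. These levels rested on 988 eyestalk counts and 199 cephalic counts, against 1 epipodial count. The pooled ratio to the epipodial tentacle was 860-fold for the eyestalk (95% interval 154 to 34000) and 296-fold for the cephalic tentacle (52.6 to 11770); these exact intervals cover counting error only.

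HDSC00217CG00110 had the next largest ratio, 11.6-fold, at a higher level. It stood at 253, 10.9, 105 and 427 CPM in the left eyestalk and at 218, 12.9, 221 and 502 CPM in the right. The left cephalic tentacle held 809, 281, 455 and 541 CPM and the right 361, 908, 112 and 969 CPM. The epipodial tentacle held 18.6, 29.1, 29.8 and 17.4 CPM on the left and 39.4, 6.63, 15.1 and 11.2 CPM on the right. All 8 cephalic libraries were above all 8 epipodial ones, whereas 2 eyestalk libraries, number 2 of each side, fell within the epipodial range. Both of those are among the 8 libraries named above.

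The most abundant genes of the group had a smaller ratio and a clear level at the foot. HDSC02219CG00040, with the highest lower head median both in CPM and per length, had 193, 434, 569 and 570.4 CPM in the left eyestalk and 352, 52.9, 1458 and 514 CPM in the right. The cephalic tentacle held 358, 5306, 216 and 516 CPM on the left and 214, 720.2, 782 and 608 CPM on the right. The epipodial tentacle held 108, 126, 145 and 289.5 CPM on the left and 138, 239.9, 171 and 279 CPM on the right. Of the 16 head libraries, 12 were above the highest epipodial one, and the value of 5306 CPM came from left cephalic tentacle number 2, a library of 494495 counts. Per length, as FPKM, which also divides by the coding length, the lower head median of this gene was 1718 FPKM, against 572 FPKM in the epipodial tentacle.

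HDSC04171CG00030 had a similar ratio and fewer head libraries among the epipodial ones. It had 471, 569, 316 and 382 CPM in the left eyestalk and 341, 66.3, 201 and 219 CPM in the right. The cephalic tentacle held 628, 582, 105 and 159 CPM on the left and 239, 663, 429 and 338 CPM on the right, against 84.8, 111, 78.9 and 134 CPM in the left and 110.0, 121, 53.7 and 121 CPM in the right epipodial tentacle. Only right eyestalk number 2 and left cephalic tentacle number 3 fell within the epipodial range. HDSC00241CG00130 and HDSC02219CG00040 had the highest epipodial medians in CPM. HDSC00241CG00130 also had the next highest level per length, with a lower head median of 658 FPKM, against 272 FPKM in the epipodial tentacle. Over the 26 genes the lower head median had a middle value of 98.5 FPKM and was lowest, at 9.38 FPKM, in HDSC01579CG00010.

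The levels in the head organs differed by up to the 4-fold that the rule allows. The cephalic median was the higher in 18 of the 26 genes and the eyestalk median in 8 (30.8%); over the candidates the eyestalk was the higher in 36.4%. The medians differed by a middle log2 value of 0.58 in either direction over the 26 genes, against 0.47 over the candidates. They were 2-fold or more apart in 7 of the 26 genes (26.9%), against 429 of the candidates (17.6%). HDSC00138CG00100 leant most to the eyestalk, with a median of 707 CPM in the eyestalk, 246 in the cephalic tentacle and 110.1 in the epipodial tentacle, followed by HDSC02276CG00040. HDSC01888CG00030 leant most to the cephalic tentacle, with 36.0 CPM in the eyestalk, 104 in the cephalic tentacle and 6.78 in the epipodial tentacle. HDSC13667CG00010 was next, with 13.4, 33.9 and 1.53 CPM in the same order, and all 8 of its cephalic libraries were above the highest epipodial value of 13.1 CPM.

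**Figure D2:**
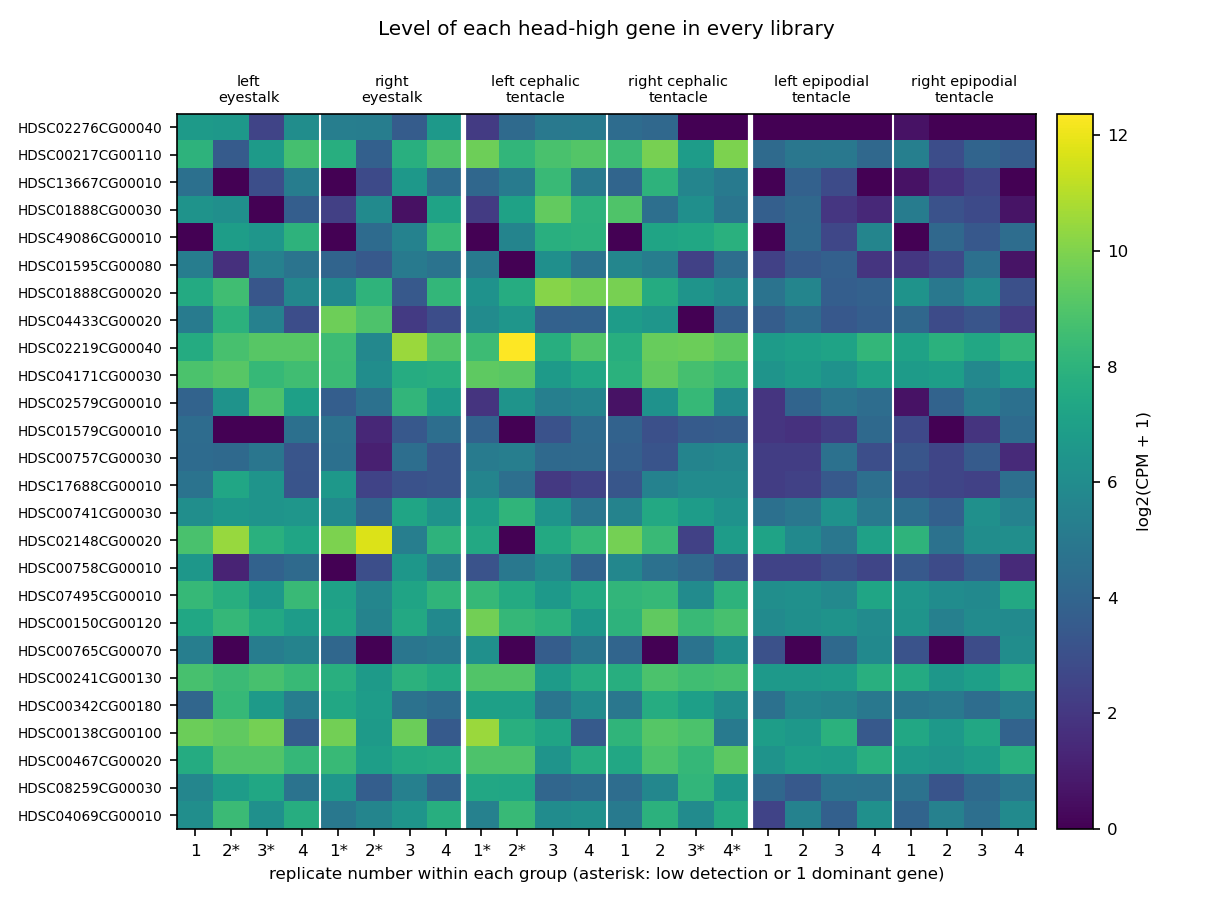
Level of each of the 26 head-high genes in all 24 libraries as log2(CPM + 1), genes ordered by the ratio that chose them; an asterisk marks the 8 libraries with few genes detected or a single dominant gene. The epipodial columns on the right are darker for most genes, and single dark cells in the head columns break nearly every line.

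The medians hide a wide spread between head libraries. In none of the 26 genes did all 16 head libraries exceed the highest epipodial library. The number that did was 2 at the least (HDSC00765CG00070), 14 at the most (HDSC02276CG00040, HDSC00217CG00110, HDSC04171CG00030 and HDSC00150CG00120) and had a median of 10, and it was at least 8 in 22 genes. All 8 eyestalk libraries were above all 8 epipodial ones in 1 gene, HDSC02276CG00040; this held for 0.163% of the 7341 genes with enough counts to be tested. All 8 cephalic libraries were above all epipodial ones in 3 genes, HDSC00217CG00110, HDSC13667CG00010 and HDSC00150CG00120, against 0.177% of the tested genes. A head library held 0 counts of the gene in 10 of the 26 genes, and an epipodial library in 5. Spread was the standard deviation of log2(CPM + 1) among the 4 libraries of a side, pooled over both sides of an organ. Its median over the 26 genes was 1.76 in the eyestalk, 1.52 in the cephalic tentacle and 0.97 in the epipodial tentacle. Over the candidates it was 1.56 in the eyestalk, 1.502 in the cephalic tentacle and 0.52 in the epipodial tentacle.

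A model over all genes gave the same contrast with its error, and since the genes were chosen on it, nothing is read from the calls. In edgeR's quasi-likelihood test with TMM factors (Benjamini-Hochberg adjusted p under 0.05), 16 of the 26 were called higher in the eyestalk than in the epipodial tentacle, against 1.01% of the tested genes. In the cephalic tentacle 13 were called higher, against 0.749%, and 10 were called in both, against 0.204%. Without the 8 libraries 3 were called higher in the eyestalk, against 146 of 8333 tested genes, and 8 in the cephalic tentacle, against 80. Then 3 were called in both, HDSC02276CG00040, HDSC00217CG00110 and HDSC00758CG00010, against 0.18% of the 8333. Leaving out 1 library at a time gave 3 to 11 called in both. Over all tested genes the median log2 fold change of the eyestalk over the epipodial tentacle was -0.18 under TMM scaling, 0.01 under RLE scaling and -0.44 when only library totals were used. For the cephalic tentacle the medians were -0.19, -0.17 and -0.33.

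Both kinds of head library went into the medians that chose the genes, so ratios above 1 are largely fixed by the choice and are a description. The ratio was recomputed with the 8 libraries of low detection or a dominant gene as the only head libraries, and with the other 8 alone. It was 2-fold or more in 19 genes in the first case and in 17 in the second, in 11 genes in both, and above 1 in 23 genes in each. Its median log2 value was 1.48 (range -1.27 to 3.06) with the 8 libraries and 1.19 (range -0.59 to 4.72) with the others. It was the larger with the 8 libraries in 13 genes and with the others in 13.

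Named after their values were seen are the 2 genes with the largest difference in each direction between the kinds of head library. HDSC17688CG00010 had a log2 ratio of 3.06 with the 8 libraries and 0.26 with the others, and HDSC00342CG00180 had 2.04 and -0.45. HDSC02276CG00040 had 1.46 with the 8 libraries and 4.72 with the others, and HDSC13667CG00010 had 0.63 and 3.62. Other genes that were larger with the others also differed by more than HDSC00342CG00180 did: HDSC00758CG00010 had -0.36 and 2.55, HDSC01579CG00010 -1.27 and 1.46, and HDSC00217CG00110 1.65 and 4.16. When the rule itself was applied without the 8 libraries, 122 genes met it, and 12 of the 26 were among the 100 with the largest ratio. With the 8 as the only head libraries 61 genes met the rule, 16 of the 26 among them. How far detection accounts for membership was not tested.

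**Figure D3:**
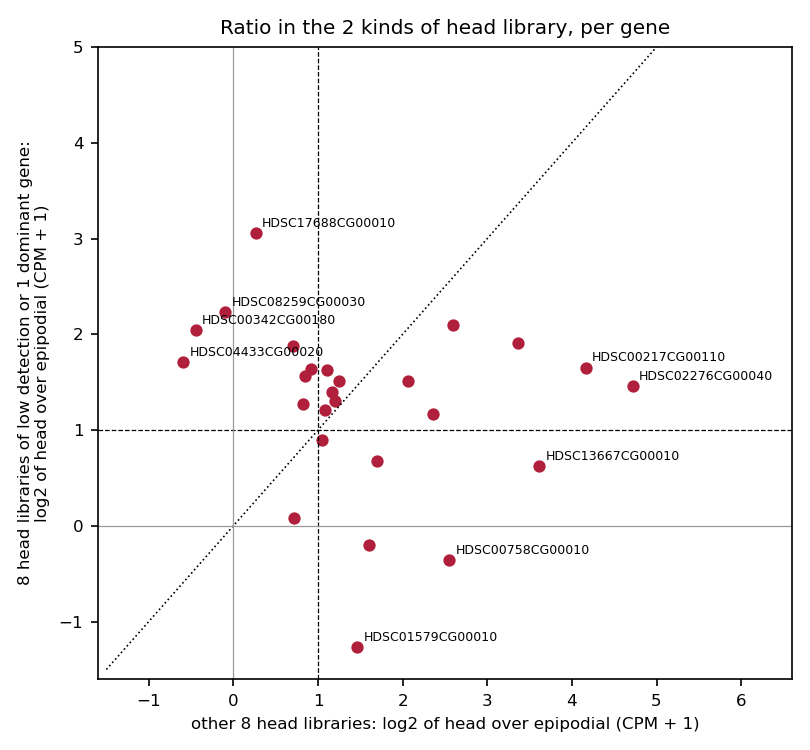
Log2 ratio of the lower head median to the epipodial median, each as CPM + 1, computed for each of the 26 genes from the 8 head libraries of low detection or a single dominant gene (vertical) and from the other 8 head libraries (horizontal). Dashed lines mark 2-fold and the dotted line equal ratios; 11 genes are past 2-fold on both axes, and the named genes differ by at least 2 on the log2 scale between the axes.

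The study's design sets left against right, which the choice of the genes did not use. The ratio of head to epipodial tentacle was above 1 in 26 of 26 genes on the left and in 26 of 26 on the right. It was 2-fold or more in 21 genes on the left, in 19 on the right and in 15 on both, with a median log2 value of 1.57 on the left and 1.22 on the right. With the epipodial sides exchanged, the ratio was above 1 in all 26 genes for either side of the head. It was then 2-fold or more in 24 genes with the left head organs, in 18 with the right and in 16 with both, at medians of 1.38 and 1.35. Since both sides went into the organ medians, this too is a description.

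No gene of the group was called different between left and right. In edgeR's test 0 of 26 had an adjusted p under 0.05 in the eyestalk, 0 in the cephalic tentacle and 0 in the epipodial tentacle, and before adjustment 0 members passed 0.05 in any of the 3. Of all 7341 genes, 0 (0%) were called in each organ, and before adjustment the eyestalk had 181 genes under 0.05, the cephalic tentacle 100 and the epipodial tentacle 4. DESeq2 also called 0 of the 26 in each organ, with 1, 0 and 0 of them under 0.05 before adjustment, and limma on log2(FPKM + 1) called 0, with 2, 0 and 0. Tested between each 2 of the organs, the left-right fold changes differed in 0 members, in all 3 contrasts, against 0% of all genes. Before adjustment, 0 members were under 0.05. Of all genes, 181 were for the eyestalk against the cephalic tentacle, 64 for the eyestalk against the epipodial tentacle and 50 for the cephalic against the epipodial tentacle. With the epipodial sides exchanged, 0 members were again called in edgeR's test, with 64 and 32 of all genes under 0.05 before adjustment; the comparison of sides within the epipodial tentacle only changes sign. With all 24 libraries the size of the estimates was close to that of other genes. The median log2 fold change of left over right without sign was 0.62 over the 26 genes and 0.53 over all genes in the eyestalk. These medians were 0.61 and 0.60 for the cephalic tentacle, and 0.28 and 0.26 for the epipodial tentacle. With sign, 12, 5 and 19 of the 26 estimates were positive in the same order of organs. Scaling moved these counts, to 14, 9 and 16 with RLE factors and to 18, 10 and 13 with library totals alone. Without the 8 libraries named above the medians were 0.50 and 0.49, 1.29 and 0.77, and 0.26 and 0.28 in that order. Before adjustment 1, 4 and 0 members were then under 0.05, against 109, 360 and 22 of 8333 genes, and 0 were called. In the 3 contrasts between organs 3, 0 and 4 members were, against 389, 78 and 320 genes, and again 0 were called.

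These calls of 0 do not show that the sides were alike. The 95% interval of left over right lay within 4-fold either way for 3 of 26 genes in the eyestalk, 5 in the cephalic tentacle and 8 in the epipodial tentacle, and the intervals of the other genes allow a 4-fold difference in at least 1 direction. Left and right epipodial libraries of the same number deviated together, and a fit of the epipodial libraries alone with the number as a block gave narrower intervals. It tested 23 of the 26 genes and called 0 of them, against 1 of 5740 genes (0.0174%). All 23 intervals lay within 4-fold and 11 within 2-fold, with estimates from -0.51 to 0.84 on the log2 scale.

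The members with the smallest p on each side show how far the libraries overlapped. In the eyestalk, HDSC04069CG00010 had 69.1, 343, 74.1 and 206 CPM on the left and 29.5, 48.7, 86.1 and 216 CPM on the right. The ranges overlapped, and edgeR's log2 fold change of left over right was 0.96 (95% interval -0.79 to 2.70, adjusted p = 1). HDSC04433CG00020 had 34.5, 244, 42.1 and 6.67 CPM on the left and 803, 485, 3.33 and 6.65 CPM on the right, with a log2 fold change of -2.74 (-5.91 to 0.44, adjusted p = 1 in edgeR's test). Its right libraries held both the highest and the lowest values of the organ, and the high ones, numbers 1 and 2, are among the 8 of low detection or a dominant gene.

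In the cephalic tentacle, HDSC01888CG00020 had 79.4, 202, 1128 and 897 CPM on the left and 901, 197, 82.4 and 59.0 CPM on the right. The sides overlapped over most of their range, and the log2 fold change was 0.80 (-1.33 to 2.92, adjusted p = 1 in edgeR's test). HDSC02579CG00010 had 2.62, 82.9, 40.2 and 46.5 CPM on the left and 0.534, 78.0, 315 and 59.0 CPM on the right, with a log2 fold change of -2.17 (-4.89 to 0.55, adjusted p = 1 in edgeR's test). In the epipodial tentacle, HDSC13667CG00010 had 0, 13.1, 6.14 and 0 CPM on the left and 0.505, 2.55, 4.84 and 0 CPM on the right, with a log2 fold change of 1.52 (-1.56 to 4.60, adjusted p = 0.9998 in edgeR's test). The gene with the smallest p among those lower on the left there was HDSC02276CG00040, whose single epipodial count lay on the right, and no fold is given.

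Left and right libraries did not overlap in 1 gene of the eyestalk, 0 of the cephalic tentacle and 0 of the epipodial tentacle, against 0.45%, 0.191% and 1.28% of tested genes in the same order. The gene was HDSC00241CG00130, named after its values were seen, with 439.8, 349.7, 434 and 326 CPM in the left eyestalk and 226, 106, 246 and 184 CPM in the right. The gene held 524, 519.7, 109.8 and 203.3 CPM in the left cephalic tentacle and 217, 467, 385 and 421 CPM in the right, against 102, 103, 110.1 and 221 CPM in the left and 185, 93.4, 127 and 233 CPM in the right epipodial tentacle, where the sides overlapped. Its log2 fold change in the eyestalk with TMM factors was 0.54 (-0.82 to 1.90, adjusted p = 1 in edgeR's test). The TMM factors of the eyestalk libraries ran from 0.29 in right eyestalk 2 to 1.76 in left eyestalk 1. The model used levels scaled by them, so it did not test the separation in CPM.

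**Figure D4:**
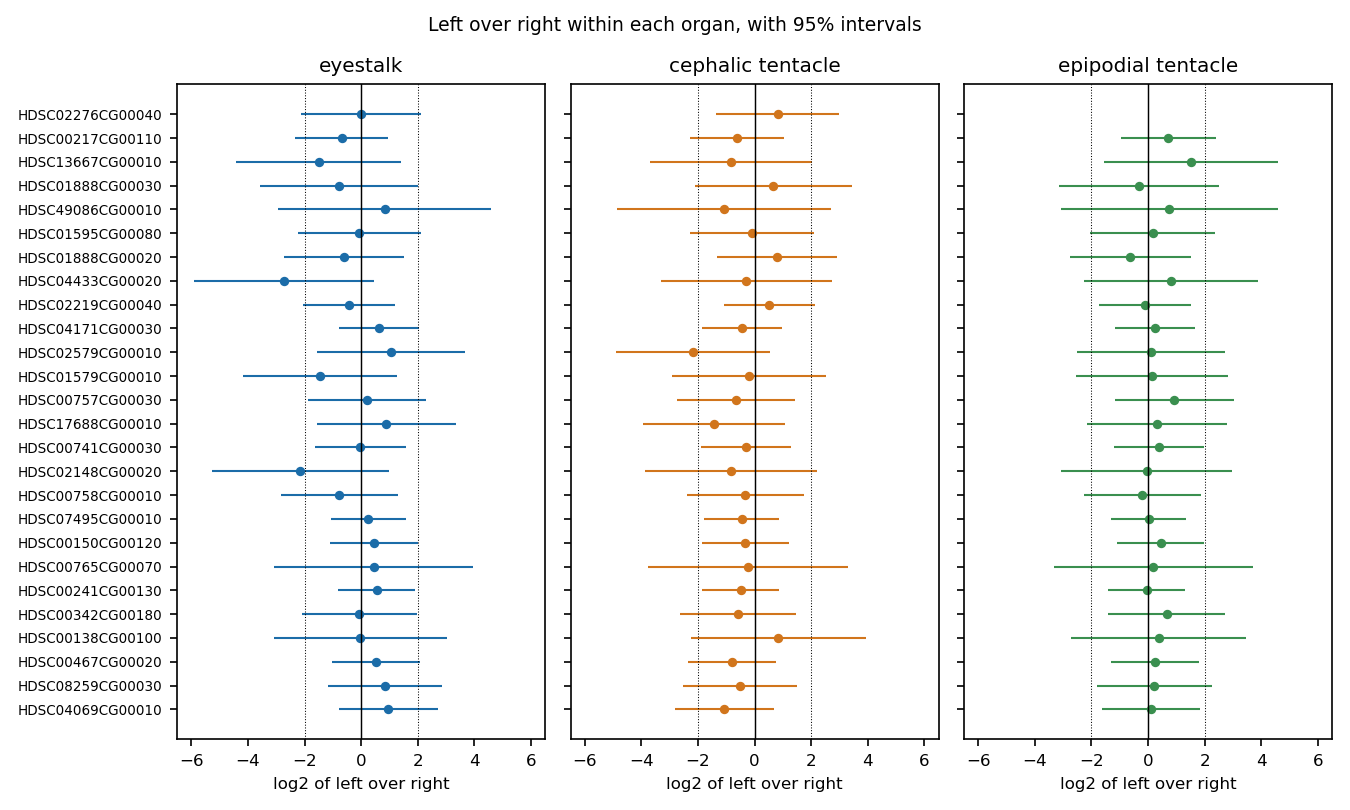
Log2 fold change of left over right with its 95% interval for each of the 26 head-high genes in the 3 organs, from edgeR with TMM factors; dotted lines mark 4-fold. Every interval drawn crosses 0; HDSC02276CG00040, with a single count in the epipodial tentacle, is not drawn there.

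Some of these genes differed between the replicate numbers, by a test that was added after the data were seen. In edgeR's quasi-likelihood F test of the number beside the 6 groups, 5 of the 26 genes (19.2%) were called, against 12.9% of the 7341 tested genes, so the share was not far from the background. The 5 were HDSC49086CG00010, HDSC02579CG00010, HDSC00765CG00070, HDSC00138CG00100 and HDSC04069CG00010. All 5 stayed called under each of the 6 other settings tried, which called 5 to 10, and with each library left out in turn.

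HDSC49086CG00010 was the clearest: all 6 libraries of number 1 held 0 counts, in every organ and on both sides (adjusted p = 1.8e-09 in edgeR's F test). In numbers 2 to 4 it had 116, 88.3 and 253 CPM in the left eyestalk and 19.0, 43.3 and 309 CPM in the right. The cephalic tentacle held 46.5, 222 and 247 CPM on the left and 149, 165 and 228 CPM on the right, against 17.8, 5.20 and 49.4 CPM in the left and 17.4, 9.67 and 20.6 CPM in the right epipodial tentacle. The 18 libraries of the other numbers held 3414 counts, so the pooled level in number 1 was at least 358-fold lower, against a floor of 3 counts over its 6 libraries. Within numbers 2, 3 and 4 every head library was above both epipodial libraries of its number, a direction that the choice of the gene largely fixes. In number 2 the margin was small, 19.0 CPM in right eyestalk 2, a library with a dominant gene, against 17.8 CPM in the left epipodial tentacle.

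HDSC00765CG00070 was absent in the same way from number 2, with 0 counts in all 6 libraries (adjusted p = 2.46e-05 in edgeR's F test). In numbers 1, 3 and 4 it had 38.6, 37.3 and 45.2 CPM in the left eyestalk and 16.5, 28.1 and 32.2 CPM in the right. The cephalic tentacle held 72.4, 11.3 and 26.6 CPM on the left and 15.5, 25.4 and 70.4 CPM on the right, against 7.45, 17.5 and 57.8 CPM in the left and 8.08, 6.45 and 67.1 CPM in the right epipodial tentacle. In number 4 the epipodial libraries lay within the range of the head libraries and above 3 of those 4. The other 18 libraries held 951 counts, so number 2 was at least 129-fold lower, against the same floor of 3 counts.

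HDSC00138CG00100 was low in number 4, with 10.1 to 33.4 CPM over its 6 libraries, against 94.6 to 1466 CPM over the other 18 (adjusted p = 4.24e-04 in edgeR's F test). In number 4 its head libraries held 11.3, 10.2, 10.4 and 33.4 CPM, against 10.1 and 14.1 CPM in the epipodial libraries, so the head to foot difference of the other numbers was not seen there. These 3 genes, HDSC49086CG00010, HDSC00765CG00070 and HDSC00138CG00100, were those in which the 6 libraries of a number did not overlap the other 18, against 1.76% of tested genes.

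The other called genes shifted by number with overlap. HDSC02579CG00010 had a median of 7.21 CPM over the head libraries of number 1, 79.2 in number 2, 299.7 in number 3 and 82.4 in number 4 (adjusted p = 2.64e-05 in edgeR's F test), and its epipodial libraries were lowest in number 1 too, at 0.505 and 2.79 CPM. HDSC04069CG00010 had head medians of 37.2, 289, 68.5 and 196 CPM in numbers 1 to 4 (adjusted p = 0.0028 in edgeR's F test). Its epipodial libraries held 4.66 and 14.6 CPM in number 1, overlapping those of number 3, and were the highest in number 4, at 60.0 and 72.4 CPM.

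**Figure D5:**
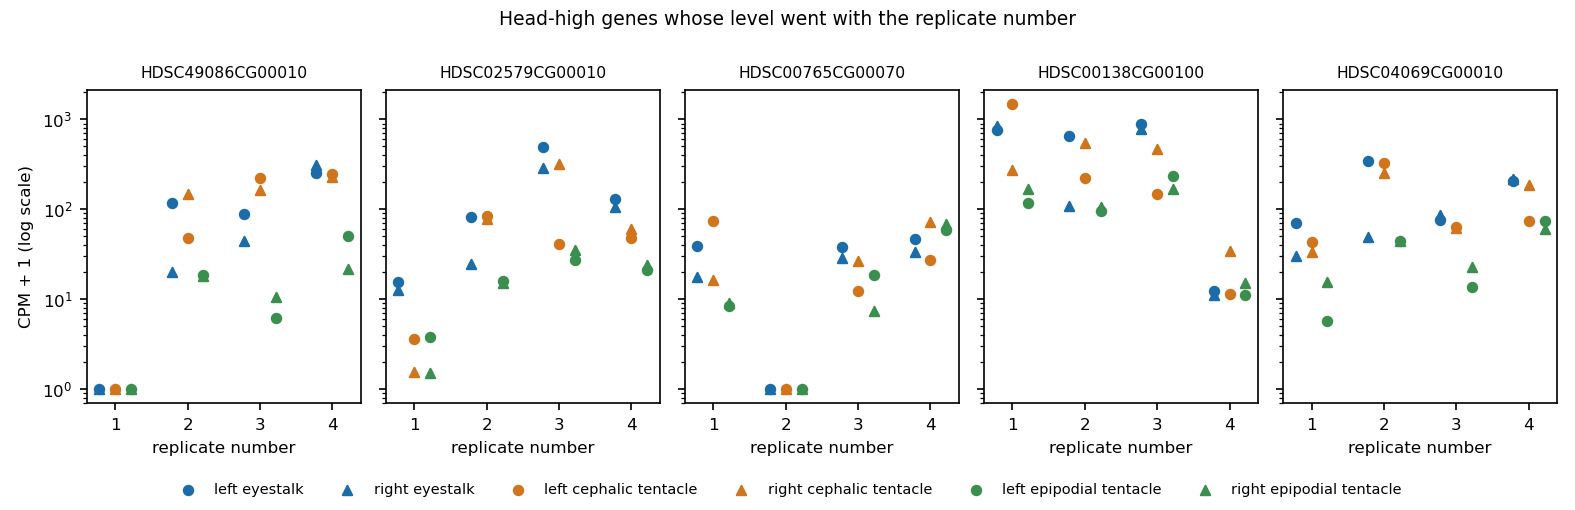
CPM + 1 on a log axis of the 5 head-high genes called for replicate number, for numbers 1 to 4, with colour for the organ and shape for the side. HDSC49086CG00010 is at 0 in all 6 libraries of number 1 and HDSC00765CG00070 in all 6 of number 2, and HDSC00138CG00100 lies between 10.1 and 33.4 CPM in number 4.

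Tested in each organ alone, the number gave 15 called members of the 23 tested (65.2%) in the epipodial tentacle, against 48.7% of all genes tested there. In the eyestalk 3 members were called, HDSC49086CG00010, HDSC01888CG00020 and HDSC00138CG00100, against 0.629%, and in the cephalic tentacle 1, HDSC49086CG00010, against 1.04%. The difference between organs was not tested. With the 8 libraries named above left out, 10 of the 26 were called, against 21.4%.

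The head to foot ratio itself differed between the numbers, each of which has 4 head and 2 epipodial libraries. The 8 libraries named above are spread unevenly over the numbers. Each number holds head libraries of both kinds, so detection is only partly tied to the number, and the difference was not tested. Computed within number 1 it was 2-fold or more in 23 genes, in number 2 in 17, in number 3 in 14 and in number 4 in 9, and it was above 1 in 24, 20, 23 and 19 genes. The median log2 ratio was 1.63, 1.60, 1.05 and 0.91 in numbers 1 to 4, with a standard deviation of 0.37 (n = 4). In 11 genes the ratio was above 1 in all 4 numbers, and in 1 gene, HDSC02276CG00040, it was 2-fold or more in all 4.

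The 26 genes shared little else that the files show. Their coding length had a median of 622.5 bases (255 to 2880), against 852 bases over the candidates, and 16 of the 26 were shorter than that. Their identifiers, whose leading part is taken as a label only, had 25 different leading parts. The shared one belonged to HDSC01888CG00020 and HDSC01888CG00030, and HDSC01888CG00020 had the higher CPM in 24 of 24 libraries. Their highest values came from the same libraries, left cephalic tentacle number 3 with 1128 and 664 CPM and right cephalic tentacle number 1 with 901 and 497 CPM. Should these be near-identical copies, their counts are uncertain, since reads can be split between such genes; no sequence was used here to check it. HDSC01888CG00010, with medians of 21.2 CPM in the eyestalk, 22.5 in the cephalic tentacle and 26.3 in the epipodial tentacle, did not have the pattern. Of 8 other candidates whose identifiers share a leading part with a member, 2 had a ratio above 1, HDSC00342CG00120 with a log2 ratio of 0.88 and HDSC02219CG00030 with 0.47, and the median of the 8 was -0.56.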

How the data were processed

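The deposited table of read counts gives 1 raw whole-number count per gene and library with no normalization, and the FPKM values the authors deposited carry the same counts, divided by coding length and library total. Reads were processed with fastp, HISAT2 and HTSeq per the submitters' processing notes. Their versions, the genome build, the annotation and any use of strand are not stated in the labels, so overlapping genes and near-identical copies are uncertain.

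CPM was computed from library totals. The test was edgeR 4.0.16 (R 4.3.3) on counts: genes filtered with filterByExpr (7341 kept, all 26 members among them), TMM factors, a robust quasi-likelihood fit of 6 group means to 24 libraries, and Benjamini-Hochberg adjustment over all genes tested at 0.05. Fold changes are left over right, or head over epipodial tentacle. Alternatives used DESeq2 1.42.0, limma 3.58.1, other scalings and filters, the replicate number as a block, and fewer libraries. In the fit of epipodial libraries alone, 23 members passed the expression filter. Exchanging the epipodial sides was added after the data were seen.

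Whether numbers pair libraries was judged from deviations from group means, correlated over genes, with every number to exceed 0.1. Left and right epipodial libraries passed (0.675 to 0.775), as did organ averages (0.21 to 0.561); left and right eyestalks (-0.128 in number 1) and cephalic tentacles (-0.242 in number 1) did not.

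The members, contrasts and lists were chosen with earlier results of these data known. Named genes are the 2 members with the largest ratio, the 2 highest head levels, the genes at the limit of the rule, the smallest p on each side of each left-right contrast, the extremes between head organs, the 2 highest epipodial levels, and genes that a count of 5 or fewer refers to. Planned gene lists and cell type markers could not be matched, as the identifiers carry no names. The precision of a level is limited by totals of 473072 to 4479096 counts; intervals and the floor of 3 counts cover counting error only, because without molecular identifiers several reads can stem from 1 molecule.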

Additional observations from a re-analysis of the deposited data

Results flagged for a closer look

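Sets of 4 libraries were taken over 15 named genes and the summed level of all members in 6 groups. In 7 of 96 sets (7.29%), 1 library stood apart from the other 3. Its gap over the range of log2(CPM + 1) was more than Dixon's 95% critical value of 0.829. For normal values, chance flags about 1 in 20 such sets. Some of the genes were named for extreme values, so the share flagged cannot be set against that rate. HDSC02276CG00040 had 4.73 CPM in left eyestalk number 3, against 66.8 to 105 CPM in the other 3. It had 0.505 CPM, a single count, in right epipodial tentacle number 1, against 0. With the others at 0, any count there would have been flagged. HDSC00138CG00100 had 11.3 CPM in left eyestalk number 4, against 650.0 to 880.2 CPM. HDSC49086CG00010 was at 0 in right cephalic tentacle number 1, against 149 to 228 CPM, and HDSC00765CG00070 was at 0 in left eyestalk number 2, against 37.3 to 45.2 CPM. These 3 genes are those set apart by replicate number in all organs, so the same number was low elsewhere too. HDSC04171CG00030 had 53.7 CPM in right epipodial tentacle number 3, against 110.0 to 121 CPM, and HDSC00241CG00130 had 221 CPM in left epipodial tentacle number 4, against 102 to 110.1 CPM.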

How the results depend on the processing

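Of 252 alternative values, 19 moved. The other 233 kept their side of the threshold or stayed within 1.5 times the main count, or within the spread. Many of the 233 are calls between sides that stayed at 0. Counts have no direction to change, and the median ratio stayed above 1 in genes chosen for it, so direction was not tested. The left-right calls and the 3 differences of left-right effects stayed at 0 members under every scaling, filter, tool, block and left-out library, the differences also with the epipodial sides exchanged. The members the rule kept were 12 with the 8 doubtful head libraries (few genes detected, or a dominant gene) left out and 16 with these as the only head libraries, an alternative added after the data were seen; under other scalings, centres, pseudocounts and limits 19 to 26 were kept. With 1 library left out, 21 to 26 were kept, and 16 in all 24 such runs. The median log2 ratio of the members was 1.93 with RLE-scaled CPM, against 1.47, and 1.35 to 1.58 with 1 library left out. Members called higher in both head organs numbered 3 with library totals alone, 16 with DESeq2, 3 with limma on log2(FPKM + 1) and 3 without the 8 libraries, against 10, and 3 to 11 with 1 library left out: 3 without left eyestalk 2, 4 without left epipodial 1 or 2 or right epipodial 1, 2 or 3, 5 without left eyestalk 3 or right eyestalk 1, and 6 without left cephalic 1, right cephalic 4 or left epipodial 3. With the replicate block they numbered 13, and the block changed no call between sides. Members called for replicate number were 10 without the 8 libraries, against 5, and 5 to 6 with 1 library left out. The causes were not tested. Low totals in 2 cephalic libraries (473072 and 494495 counts) limit what levels near 1 CPM can show.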
